A study of Arabidopsis thaliana with 12 samples.

Results

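A set of 67 Arabidopsis thaliana transcripts was very abundant in the suspensor of the 32-cell embryo and was also detected, at lower level, in at least 1 of the other cell types of the same study. The genes were selected on measured values: each had a mean FPKM (fragments counted for a gene, scaled to its length and to the size of the library) of at least 500 over the 3 suspensor libraries, at least 4 times the highest of the means of the 3 other groups, and a highest other mean of at least 1. They were 67 of the 32399 genes in the files. Their excess in the suspensor was therefore set by the choice and is given as a description without a test.

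The study compared the apical and basal lineages of the early embryo, in 4 groups of 3 libraries each. These were 32S, the suspensor of the 32-celled embryo; 32E, the embryo proper of embryos at that same stage; BC, the basal cell; and AC, the apical cell, both labelled as 2-celled embryo and taken just after the first division of the zygote. All plants were of the ecotype Columbia-0 (labelled Col), grown in a greenhouse under long days, and no mutant or treatment was used. Seeds were softened in wall-degrading enzymes, embryos were isolated by hand, the apical and basal parts were separated with a laser microdissection system, and the cells of a sample were collected and lysed together before their polyadenylated RNA was amplified and sequenced.

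A dissected pool gives the summed RNA of its cells, so a higher FPKM in a group cannot be assigned to more cells of a type or to more RNA per cell. For library construction the labels name Nextera XT or NEBNext kits without assigning them to libraries, while the study's methods name NEBNext alone, so whether the kit differed between groups was not tested. The study describes the libraries of a group as independent biological samples, and the p-values measure the spread between them. FPKM summed to between 833418 and 955228 per library and 13034 to 15322 genes per library exceeded 1 FPKM. The files hold no counts, and the read totals that the study gives were not used here, so neither an interval for counting error nor a detection limit is given. A value of 0 is called listed at 0.

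The suspensor is the stalk that anchors the embryo in the seed and joins it to maternal tissue. It descends from the basal cell, passes nutrients and hormones to the embryo proper, grows by few divisions and is later dismantled by programmed cell death. The apical cell gives rise to most of the embryo proper, and basal cell identity is tied to the homeobox gene WOX8 and its relatives.

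The labels were checked against such markers. WOX8, a homeobox gene of the basal lineage, had 446, 388 and 452 FPKM in 32S, 0, 0 and 0 FPKM in 32E, 359, 325 and 366 FPKM in BC and 8.99, 7.02 and 9.35 FPKM in AC, and the basal lineage libraries stood above all others. HAN, a GATA factor of the embryo proper, was listed at 0 in the 3 libraries of 32S and had 194, 156 and 152 FPKM in 32E. Not every marker followed its list. At both stages WOX9, PIN7, IAA10 and WRKY2 had higher means in the basal lineage. YDA had means of 10.03 FPKM in 32S and 43.2 in AC, and SSP was listed at 0 throughout. DRN, HAN and AGO10 had higher means in AC than in BC. WOX2, LEC2, ATML1 and PDF2 had higher means in BC, with 158, 206, 72.9 and 12.7 FPKM against 113, 114, 62.3 and 2.25 in AC. Within 32S, genes of the outer cell layer were the exceptions among the 9 embryo proper markers: ATML1 had 13.98, 32.5 and 19.2 FPKM in 32S, PDF2 had 99.98, 129 and 111 FPKM in 32S, and PDF1 had 503, 1941 and 897 FPKM in 32S and 3514, 4033 and 3297 FPKM in 32E. All 3 were highest in suspensor replicate 2, the library in which many of the 67 genes were also highest. Summed FPKM of 8 endosperm markers was 0.18 to 1.64 in 32S, and that of 8 seed coat markers was 3.86 to 11.7, all of it from STK apart from 0.03 FPKM of MUM4 in 1 library.

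The promoters of the 4 most abundant genes, and of a lipid transfer protein gene with a repeated motif, are shown because they stand before the transcripts that dominate the set and before a gene with a contrasting order of BC and AC. Each sequence is the 250 bases before the annotated start of the gene in the RefSeq annotation of TAIR10.1, written 5′ to 3′ on the strand of the gene. Capitals mark TATAAA on that strand and CATGCA, the RY element bound by B3-domain factors of seed development, on either strand, where the reverse complement reads TGCATG.
AT4G33145 (chr4:15985065-15985314, minus strand): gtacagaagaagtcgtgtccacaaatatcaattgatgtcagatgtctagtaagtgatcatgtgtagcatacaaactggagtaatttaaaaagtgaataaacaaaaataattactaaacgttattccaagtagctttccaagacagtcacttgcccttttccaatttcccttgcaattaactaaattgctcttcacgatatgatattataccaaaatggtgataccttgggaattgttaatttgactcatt
MEE26 (chr2:14710504-14710753, plus strand): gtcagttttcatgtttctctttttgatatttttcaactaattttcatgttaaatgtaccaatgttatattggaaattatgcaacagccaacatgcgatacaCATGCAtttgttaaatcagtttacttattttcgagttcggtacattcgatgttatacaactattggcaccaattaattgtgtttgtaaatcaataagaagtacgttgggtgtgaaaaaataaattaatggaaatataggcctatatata
AT4G04090 (chr4:1964730-1964979, plus strand): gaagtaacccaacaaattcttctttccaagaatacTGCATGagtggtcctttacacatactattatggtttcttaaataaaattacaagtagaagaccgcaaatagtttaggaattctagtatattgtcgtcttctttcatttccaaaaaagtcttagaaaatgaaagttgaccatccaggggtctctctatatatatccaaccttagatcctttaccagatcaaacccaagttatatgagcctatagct
LCR48 (chr3:17858875-17859124, minus strand): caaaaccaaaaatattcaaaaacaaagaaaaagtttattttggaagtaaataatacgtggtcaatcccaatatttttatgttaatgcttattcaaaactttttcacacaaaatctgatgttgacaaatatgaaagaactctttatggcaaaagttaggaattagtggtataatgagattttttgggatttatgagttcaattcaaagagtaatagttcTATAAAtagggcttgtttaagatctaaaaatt
AT5G38170 (chr5:15227388-15227637, plus strand): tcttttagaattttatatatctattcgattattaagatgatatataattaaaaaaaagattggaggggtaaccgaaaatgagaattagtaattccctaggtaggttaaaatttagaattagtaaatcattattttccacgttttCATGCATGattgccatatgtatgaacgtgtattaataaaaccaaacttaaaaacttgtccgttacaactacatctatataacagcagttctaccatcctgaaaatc
AT4G33145 had no marked motif, MEE26 and AT4G04090 had 1 RY element each, LCR48 had 1 TATAAA that began 32 bases before the gene start, and AT5G38170 had 2 RY matches that overlap in CATGCATG, 1 on each strand.

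Short reading frames rich in cysteine codons recurred among the 67 genes, and 5 of them are shown as spliced coding sequences with cysteine codons in capitals. The coordinates in TAIR10.1 run from the first to the last coding base and include the intron.
LCR48 (chr3:17858379-17858823, minus strand): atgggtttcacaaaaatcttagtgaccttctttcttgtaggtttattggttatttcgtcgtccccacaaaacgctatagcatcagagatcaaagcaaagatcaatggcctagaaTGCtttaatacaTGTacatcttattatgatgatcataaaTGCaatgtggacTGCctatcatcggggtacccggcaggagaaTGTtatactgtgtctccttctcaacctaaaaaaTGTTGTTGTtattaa
AT5G63085 (chr5:25302862-25303230, plus strand): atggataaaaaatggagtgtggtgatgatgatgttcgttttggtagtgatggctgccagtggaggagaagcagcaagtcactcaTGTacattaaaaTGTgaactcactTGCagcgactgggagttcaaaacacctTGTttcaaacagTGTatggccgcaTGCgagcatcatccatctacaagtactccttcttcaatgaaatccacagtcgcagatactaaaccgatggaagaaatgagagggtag
AT1G77525 (chr1:29134031-29134438, minus strand): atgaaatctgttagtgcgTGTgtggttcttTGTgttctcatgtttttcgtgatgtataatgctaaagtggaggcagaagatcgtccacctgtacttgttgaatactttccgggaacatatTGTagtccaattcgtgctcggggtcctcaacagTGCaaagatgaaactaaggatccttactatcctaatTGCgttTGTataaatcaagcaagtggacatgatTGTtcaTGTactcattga
AT5G46871 (chr5:19018101-19018443, plus strand): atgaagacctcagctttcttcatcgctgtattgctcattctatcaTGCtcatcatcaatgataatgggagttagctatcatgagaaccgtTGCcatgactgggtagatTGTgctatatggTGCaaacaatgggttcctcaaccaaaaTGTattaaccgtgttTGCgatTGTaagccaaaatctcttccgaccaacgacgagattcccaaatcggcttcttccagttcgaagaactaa
MT2A (chr3:2889737-2890188, minus strand): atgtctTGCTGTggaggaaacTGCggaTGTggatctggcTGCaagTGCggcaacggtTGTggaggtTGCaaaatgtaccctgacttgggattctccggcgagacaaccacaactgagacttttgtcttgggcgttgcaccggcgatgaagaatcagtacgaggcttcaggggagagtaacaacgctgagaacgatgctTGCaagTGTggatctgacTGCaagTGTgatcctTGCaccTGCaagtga
LCR48 has 8 cysteine codons of 80, AT5G63085 has 6 of 81, AT1G77525 has 8 of 79, AT5G46871 has 7 of 78 and MT2A, a metallothionein that binds metal ions through its cysteines, has 14 of 81.

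The 67 transcripts took up 14.2, 18.2 and 14.6% of all FPKM in the 3 suspensor libraries. Their share was 0.403, 0.441 and 0.366% in 32E, 1.204, 1.22 and 1.28% in BC and 0.809, 0.834 and 0.783% in AC. The 6 most abundant alone accounted for 6.38, 9.19 and 6.66% in 32S, and for at most 0.527% in any other library. Mean FPKM in 32S ran over a wide range, up to 19387, with a median of 1171. A group of 6 genes, AT4G33145, MEE26, AT4G04090, LCR48, AT1G04645 and AT1G09370, stood above the rest at 7486 FPKM or more, followed by THI1 with a mean of 4259.5 FPKM.

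**Figure D1:**
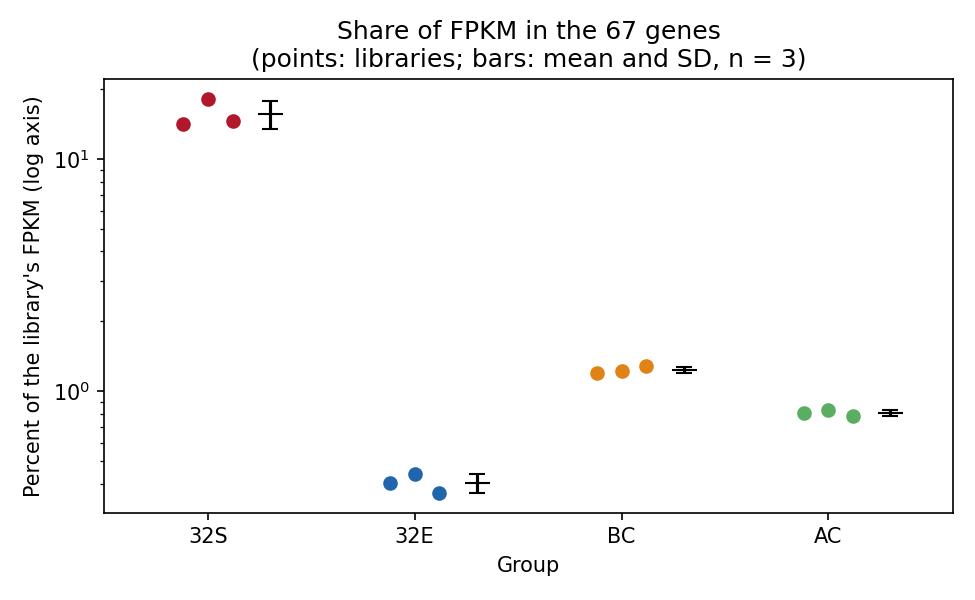
Percent of each library's summed FPKM that fell in the 67 genes (log axis), by group, with points for libraries and bars for mean and SD (n = 3). The 32S libraries lie between 14.2 and 18.2%, and all libraries of 32E, BC and AC lie at or under 1.28%.

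In each of the 67 genes the lowest suspensor library was above the highest of the 9 other libraries, by a factor of at least 2.18. This separation follows in large part from the choice, which required a ratio of means of at least 4, and is a description only. The mean in 32S was a median of 7.68 times the highest other mean. That ratio was under 6 for 23 genes, at least 20 for 19 and at least 100 for 7.

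**Figure D2:**
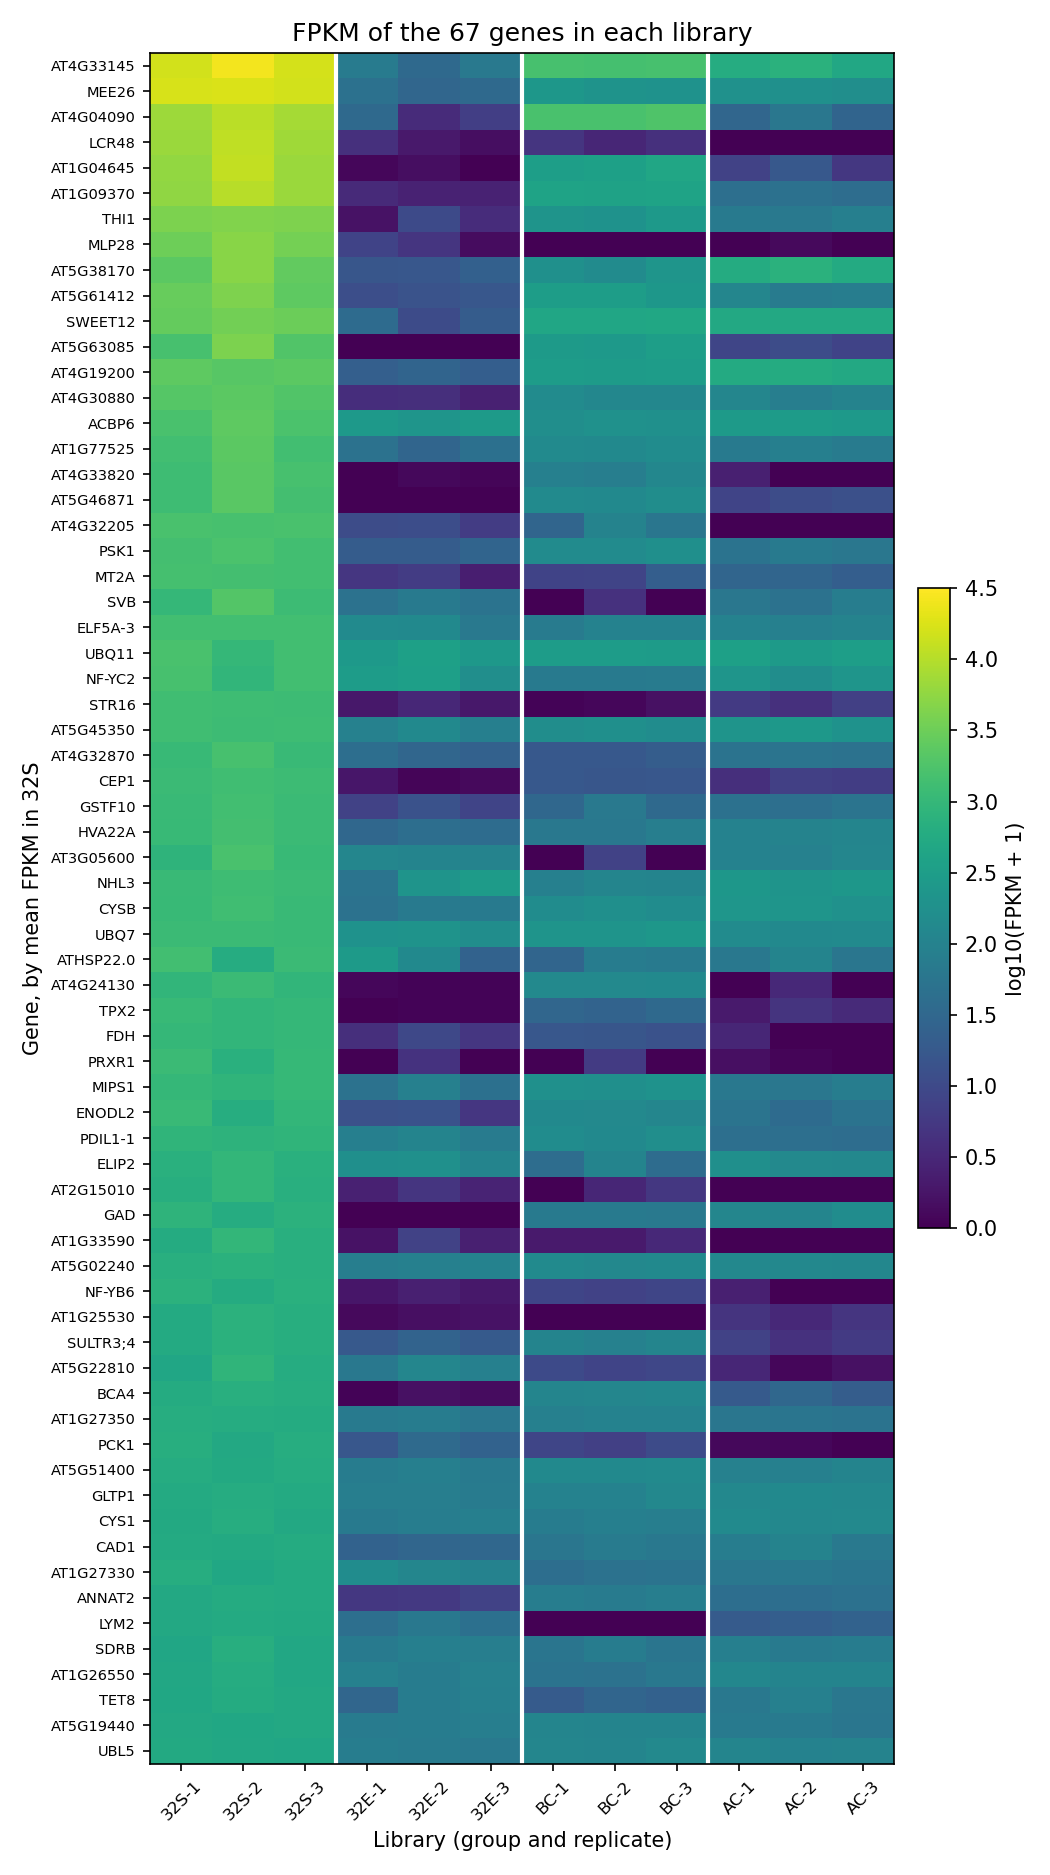
Log10(FPKM + 1) of each of the 67 genes (rows, by mean FPKM in 32S) in each of the 12 libraries (columns). The 3 columns of 32S are the brightest in every row, whereas the columns of 32E, BC and AC differ from row to row.

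The thresholds cut through a continuous range of values. UBL5, AT5G19440 and TET8 lay just inside the level of 500, with means of 500.3, 503.3 and 525 FPKM in 32S, while GLB1, AGP2 and c-NAD-MDH2 lay just outside with 494, 489 and 479 FPKM. UBQ11, AT4G19200 and UBL5 lay just inside the ratio of 4, at 4.04, 4.13 and 4.16, while AT1G67350, AT1G71691 and TIL lay just outside at 3.98, 3.90 and 3.84. PRXR1, AT2G15010 and AT1G33590 had the lowest highest other means, 1.71, 2.44 and 2.99 FPKM. A further 5 genes passed the level and the ratio but had a highest other mean under 1. GSR2, a glutamine synthetase, had 0.777, AT1G47540 had 0.75 and GLN1;5, also a glutamine synthetase, had 0.053 FPKM, and AT1G62290 and AT3G49300 were listed at 0 outside 32S.

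The choice required a mean of at least 1 FPKM in at least 1 of the 3 other groups, and the following counts describe where it was met. A mean of at least 1 FPKM in BC or AC was reached by 66 of the 67 genes, of at least 10 by 57 and of at least 100 by 39. MLP28, of the major latex protein family, was the exception, since only 32E brought its highest other mean past 1. A mean of at least 1 in all 4 groups was reached by 45 genes. The median of the mean FPKM over the 67 genes was 1171 in 32S, 25.2 in 32E, 95.3 in BC and 62.1 in AC. The highest mean outside 32S was in BC for 33 genes, in AC for 21 and in 32E for 13.

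Whether the 3 other groups differed among themselves was tested. The choice bounded them from above, by the ratio of 4 to 32S, and required the highest of their means to be at least 1, but used no difference between them. Calls required a limma adjusted p under 0.01 together with a difference of at least 1 in log2(FPKM + 1). Between the daughter cells of the zygote, 23 of the 67 genes (34.3%) were higher in BC than in AC and 11 (16.4%) were lower, and 33 were not called. Of all 17060 tested genes, 18.4% were called higher and 19.0% lower, so the share of lower calls was near the background. The median difference, BC minus AC, was 0.37 over the 67 genes and 0.00 over all tested genes. In 34 genes (50.7%) every BC library lay above every AC library, against 33.6% of all tested genes, and in 21 (31.3%) every BC library lay below, against 32.9%.

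In the apical lineage over time, 8 genes (11.9%) were higher in 32E than in AC and 27 (40.3%) were lower, against 13.1 and 14.3% of all tested genes. The median difference, 32E minus AC, was −0.49 against −0.01 over all tested genes. Between 32E and BC, where lineage and stage cannot be told apart, 10 genes (14.9%) were higher in 32E and 32 (47.8%) were lower, against 19.4 and 19.5% of all tested genes. The median difference, 32E minus BC, was −0.82 against 0.00. These comparisons share groups and are not independent. The shares of genes higher in 32E were near or under the background, and the shares lower in 32E were well above it.

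Over the 3 comparisons 19 of the 67 genes (28.4%) were called higher in BC than in both AC and 32E, against 11.2% of all tested genes. AC was called above both others for 3 genes (4.48%, against 6.48%) and 32E for 4 (5.97%, against 7.1%). By contrast, 23 genes (34.3%) were called lower in 32E than in both BC and AC, against 6.2% of all tested genes. For 11 genes (16.4%) each step was called, with BC above AC and AC above 32E, against 1.24%. No call was made in any of the 3 comparisons for 17 genes (25.4%), against 42.7%. Among the other 184 genes with a mean of at least 500 FPKM in 32S, 11.96% were higher and 6.52% lower in BC than in AC, 7.61% were higher and 11.96% lower in 32E than in AC, and 10.3% were higher and 19.0% lower in 32E than in BC. All 67 genes entered the test, and 65 of them would have passed its filter on the 9 libraries outside 32S alone. MLP28 and PRXR1 passed only through 32S, and without them 7 genes were higher in 32E than in AC and 9 were higher in 32E than in BC, with the other counts as given.

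**Figure D3:**
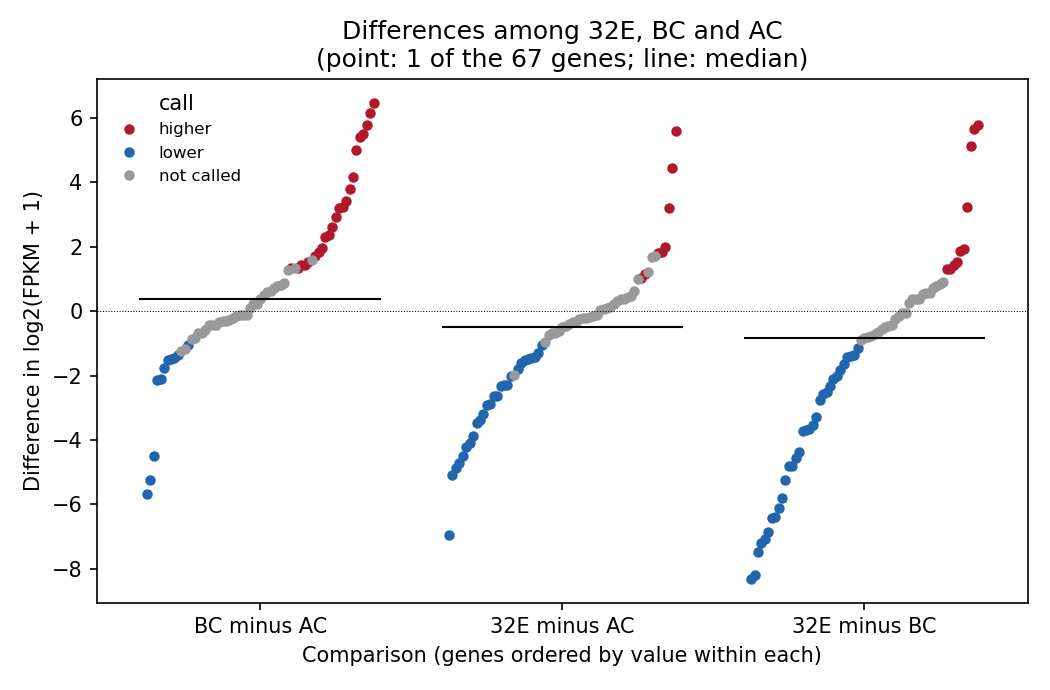
Difference in log2(FPKM + 1) of each of the 67 genes for BC minus AC, 32E minus AC and 32E minus BC, ordered within each comparison, with lines at the medians of 0.37, −0.49 and −0.82. Red points were called higher and blue points lower; called genes reach further below 0 than above it in both comparisons of 32E.

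The genes were also grouped by roles, assigned after the values were known, so the small counts by role are descriptions. Among the 7 genes for secreted peptides, 5 were higher in BC than in AC and none was lower, and 5 were lower in 32E than in BC. Over all tested genes, 18.4% were higher and 19.0% lower in BC than in AC, and 19.5% were lower in 32E than in BC. Small cysteine-rich peptides of plants are secreted, and known families act in defence or as signals between cells. LCR48, a low-molecular-weight cysteine-rich peptide of the defensin-like class, had 6705, 11524 and 7273 FPKM in 32S, 3.14, 1.04 and 0.46 FPKM in 32E, 3.86, 2.03 and 3.15 FPKM in BC and 0, 0 and 0 FPKM in AC. Its suspensor libraries were far above all others, and its mean in 32S was 2821 times its BC mean, which rests on a few FPKM. BC exceeded AC, where it was listed at 0, by 1.98 ± 0.35 (SE) on the log2(FPKM + 1) scale (adjusted p = 0.000419). The closest copy of its coding sequence, LCR49, is 92.2% identical and had a mean of 0 FPKM in 32S, so their separate values are uncertain.

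AT1G04645, of the family of plant self-incompatibility S1 proteins, had 5806, 12111 and 6612 FPKM in 32S, 0.18, 0.48 and 0 FPKM in 32E, 333, 362 and 463 FPKM in BC and 6.71, 16.6 and 4.39 FPKM in AC. The 4 groups did not overlap, and the order ran 32S, BC, AC, 32E. BC was above AC by 5.41 ± 0.39 (adjusted p = 4.94e-07) and 32E was below AC with a difference of −2.90 ± 0.39 (adjusted p = 8.11e-05), both as log2 differences with SE. AT5G63085, a thionin-family gene, showed the same order, with 1564, 4023 and 1913 FPKM in 32S, 0 in all of 32E, 279, 276 and 334 FPKM in BC and 7.75, 10.3 and 6.99 FPKM in AC. Its difference of 5.001 ± 0.28 between BC and AC was called (adjusted p = 9.64e-08). AT5G46871, annotated as a putative membrane lipoprotein but with the short cysteine-rich frame shown above, was likewise listed at 0 in all of 32E. It had 1279, 2237 and 1440.4 FPKM in 32S, 142, 134 and 161 FPKM in BC and 7.34, 10.3 and 11.3 FPKM in AC. Its closest copy, AT5G46874, is 89.6% identical and had a mean of 0 FPKM in 32S, so the split of reads between them is uncertain.

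PSK1 encodes a precursor of phytosulfokine, a sulfated peptide that promotes cell growth through a receptor kinase. It had 1426, 1685 and 1386 FPKM in 32S, 19.01, 19.8 and 27.5 FPKM in 32E, 146, 148 and 170.2 FPKM in BC and 51.4, 69.9 and 59.7 FPKM in AC. No group overlapped another, and BC exceeded AC by 1.35 ± 0.15 (SE; adjusted p = 1.57e-05) and 32E fell below AC by a difference of −1.42 ± 0.15 (SE; adjusted p = 1.64e-05). AT1G77525, a defensin-like gene, had 1362, 2322 and 1367 FPKM in 32S and was not called between BC, at 143 ± 7.28 FPKM, and AC, at 77.5 ± 8.26 FPKM (SD, n = 3 each). AT2G15010, a thionin gene, had 666, 948 and 687 FPKM in 32S, at most 4.35 FPKM in every library of 32E and BC and 0 in AC. It was not called between any of the 3 lower groups.

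**Figure D4:**
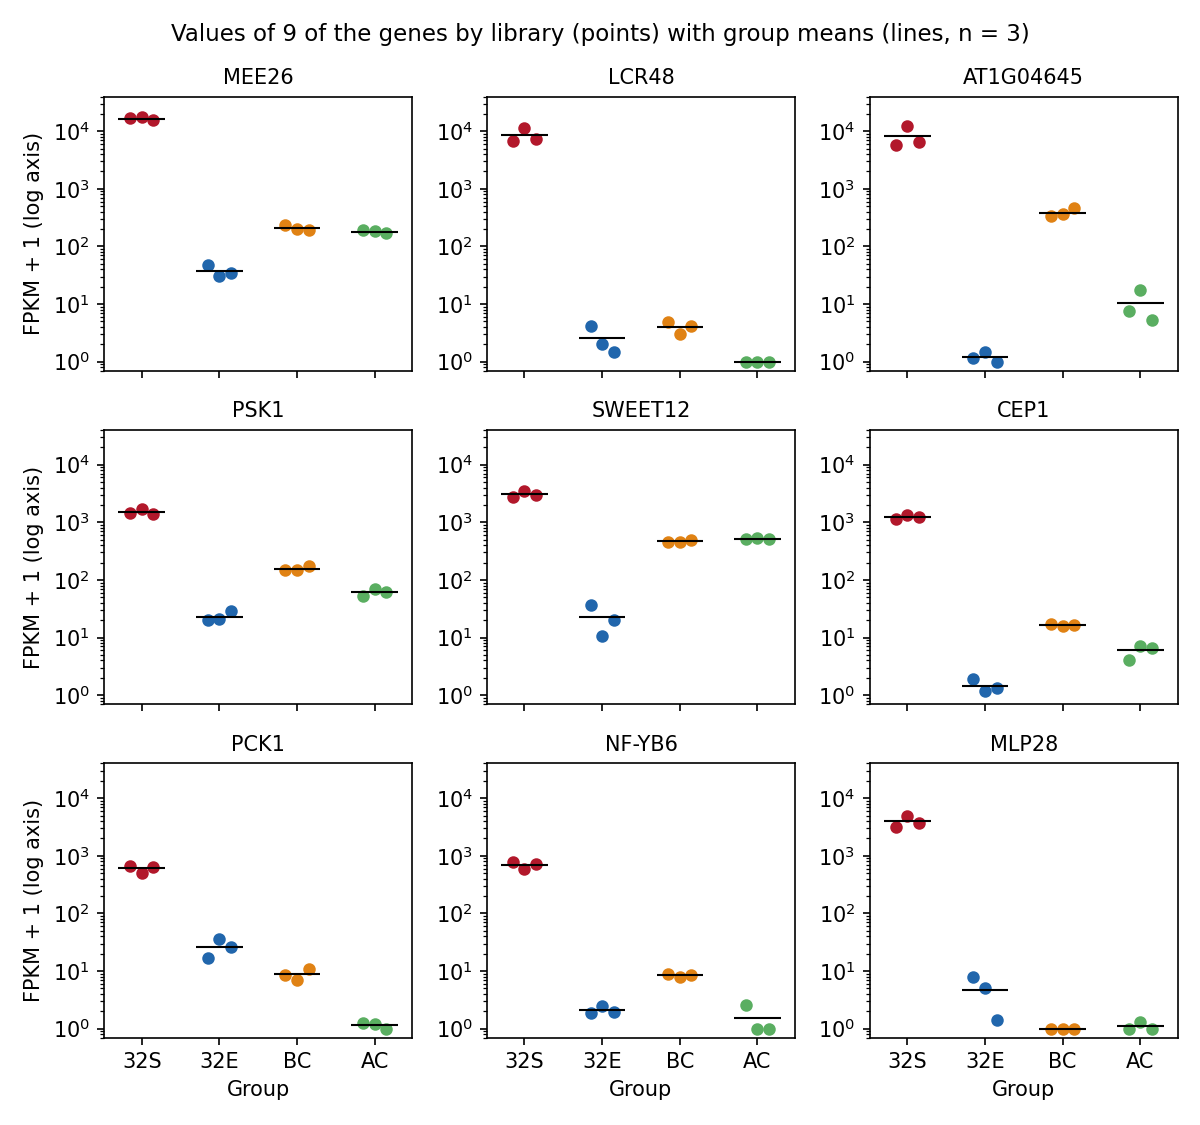
FPKM + 1 (log axis) of 9 of the 67 genes in each library (points) with group means (lines, n = 3). All 9 are highest in 32S, while the order of 32E, BC and AC differs: AT1G04645 is lowest in 32E, PCK1 is lowest in AC and MLP28 is at or near 0 in BC and AC.

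Genes of the cell wall and cell surface numbered 10, of which 3 were higher and 2 lower in BC than in AC, and 5 were lower and 2 higher in 32E than in BC. All tested genes had shares of 18.4% higher and 19.0% lower in the former comparison, and of 19.5% lower and 19.4% higher in the latter. MEE26, a hydroxyproline-rich glycoprotein gene named for a maternal effect on embryo arrest, had 16826, 17311 and 15549.5 FPKM in 32S, 45.9, 30.04 and 33.1 FPKM in 32E, 238, 203 and 193 FPKM in BC and 188, 183 and 168 FPKM in AC. Its suspensor replicates differed little, with a coefficient of variation of 5.49%, and its mean in 32S was 78.4 times that in BC. BC and AC did not pass the test against each other (0.23 ± 0.14, adjusted p = 0.187), while 32E was below AC with a difference of −2.30 ± 0.14 (adjusted p = 1.84e-07; log2 differences with SE). AT1G09370 encodes an inhibitor of the invertase and pectin methylesterase family, proteins that restrain enzymes acting on sucrose or on wall pectin. It had 5671, 10235 and 6551 FPKM in 32S, 2.5, 1.71 and 1.73 FPKM in 32E, 407, 392 and 401 FPKM in BC and 42.6, 46.4 and 38.95 FPKM in AC. Its BC libraries were all above its AC libraries, by a log2 difference of 3.20 ± 0.19 (SE; adjusted p = 1.22e-07), and 32E was the lowest group.

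AT4G33820, a glycosyl hydrolase gene, had 1259, 2188 and 1575 FPKM in 32S, at most 0.25 FPKM in 32E, 89.4, 82.2 and 119 FPKM in BC and at most 1.48 FPKM in AC. Only the basal lineage thus held it above 1.48 FPKM, and BC exceeded AC by 6.16 ± 0.33 (SE; adjusted p = 7.53e-08). Its closest copy, AT4G33810, is 88.6% identical and had a mean of 0 FPKM in 32S, so the split of reads between them is uncertain. LYM2, a LysM receptor protein anchored in the plasma membrane that binds chitin, had the opposite order of the zygote's daughters, with 509, 572 and 544 FPKM in 32S, 43.7, 61.9 and 44.4 FPKM in 32E, 0, 0 and 0 FPKM in BC and 18.9, 21.1 and 24.9 FPKM in AC. It was lower in BC than in AC with a difference of −4.49 ± 0.15 (adjusted p = 5.67e-09) and higher in 32E than in AC by 1.16 ± 0.15 (adjusted p = 7.3e-05), as log2 differences with SE. It was thus listed at 0 in every BC library, whereas all 3 libraries of 32S exceeded 500 FPKM.

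The proline-rich protein genes AT4G19200 and AT5G45350 are 68.7% identical over 71.7% of the coding sequence of AT4G19200. AT4G19200 had 2423, 2141 and 2294 FPKM in 32S, 21.98, 26.9 and 21.2 FPKM in 32E, 307, 299 and 307 FPKM in BC and 555, 584 and 522 FPKM in AC. All AC libraries lay above all BC libraries, and 32E was below AC with a difference of −4.51 ± 0.10 (SE; adjusted p = 6.94e-11). AT5G45350 had 1266 ± 68.6 FPKM in 32S, 105 ± 25.96 in 32E, 163 ± 9.26 in BC and 218 ± 25 in AC (SD, n = 3 each), and its lower call in 32E against AC was lost when any of 3 single libraries was left out.

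ENODL2, an early nodulin-like arabinogalactan protein, was higher in BC than in AC and lower in 32E than in both, with means of 911, 9.54, 126 and 46.9 FPKM in 32S, 32E, BC and AC. TET8, a tetraspanin found in plant extracellular vesicles, was lower in BC than in AC and higher in 32E than in BC, with means of 525, 65.9, 23.8 and 70.5 FPKM in the same order. Both calls of TET8 and the higher call of ENODL2 in BC are among those lost when single libraries were left out. AT1G33590, a leucine-rich repeat protein gene, and NHL3, a plasma membrane protein induced by pathogens, were not called. NHL3 in 32E spread widely, with 53.1, 216 and 299.6 FPKM, and the pooled SE carries this spread into every comparison. It had 91.75, 111 and 105 FPKM in BC and 240.4, 211.7 and 239.4 FPKM in AC.

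Among the 6 genes for lipid carriers and lipases, replicate 2 was the highest suspensor library in all 6. AT5G38170, of the lipid transfer protein and 2S albumin superfamily, had 2318, 4970.4 and 2674 FPKM in 32S, 14.8, 15.5 and 23.3 FPKM in 32E, 180.4, 149.8 and 220.0 FPKM in BC and 596, 733 and 558 FPKM in AC. Unlike the peptide genes it was higher in AC than in BC: the difference, BC minus AC, was −1.78 ± 0.27 (SE; adjusted p = 0.000137). Without suspensor replicate 2 its ratio to AC fell under 4 and it would not have been selected. AT4G30880, of that superfamily, had 2055, 2327 and 1889.5 FPKM in 32S, 2.84, 2.99 and 1.64 FPKM in 32E, 148, 120.2 and 119 FPKM in BC and 116, 83.6 and 100.4 FPKM in AC. BC and AC were not called apart, and 32E was below AC by a log2 difference of −4.87 ± 0.17 (SE; adjusted p = 2.98e-09).

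AT5G22810, a GDSL-type lipase gene was higher in 32E than in both earlier cells. It had 466, 867 and 601 FPKM in 32S, 61.5, 116 and 90.6 FPKM in 32E, 9.15, 7.45 and 8.23 FPKM in BC and 2.1, 0.18 and 0.6 FPKM in AC. The 4 groups did not overlap, and 32E exceeded AC by 5.60 ± 0.35 (adjusted p = 1.99e-07) and BC by 3.24 ± 0.35 (adjusted p = 8.61e-06), as log2 differences with SE. AT4G32870, a polyketide cyclase and lipid transport family gene, was lower in BC, at 17.6 ± 2.2 FPKM, than in AC, at 50.4 ± 2.17 FPKM (SD, n = 3 each). ACBP6, a cytosolic acyl-CoA-binding protein, and GLTP1, a glycolipid transfer protein, were not called in any of the 3 comparisons. ACBP6 kept 219 to 286 FPKM in 32E, 164 to 189 FPKM in BC and 272 to 300 FPKM in AC.

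The 3 transporter genes each had their own pattern outside 32S. SWEET12, which exports sucrose from cells, had 2719, 3489 and 3027 FPKM in 32S, 36, 9.53 and 19.3 FPKM in 32E, 454, 461 and 485 FPKM in BC and 517, 524 and 513 FPKM in AC. BC and AC were not called apart (−0.15 ± 0.32, adjusted p = 0.741), and 32E was lower than both, with a difference of −4.70 ± 0.32 against AC (adjusted p = 4.59e-07; log2 differences with SE). Its closest copy, SWEET11, is 82.5% identical over 96.2% of the coding sequence and had a mean of 0 FPKM in 32S. SULTR3;4, of the sulfate transporter family, was higher in BC than in AC by 4.17 ± 0.22 (SE; adjusted p = 5.32e-08), with 568, 755 and 658 FPKM in 32S, 16.99, 26.1 and 17.6 FPKM in 32E, 105, 95.2 and 110.1 FPKM in BC and 6.79, 3.32 and 4.82 FPKM in AC. AT1G25530, an amino acid transporter family gene, was listed at 0 in BC and had 3.73, 2.32 and 3.93 FPKM in AC, against 560.1, 791 and 650.4 FPKM in 32S.

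Genes for metabolic enzymes formed the largest group by role, with 12 members, of which 4 were higher and 2 lower in BC than in AC, and 5 were lower and 2 higher in 32E than in AC. All tested genes had shares of 18.4% higher and 19.0% lower in the former comparison, and of 14.3% lower and 13.1% higher in the latter. THI1, which makes the thiazole part of thiamine, had 4056, 4491 and 4232 FPKM in 32S, 0.69, 9.22 and 2.79 FPKM in 32E, 213, 198 and 265 FPKM in BC and 71.7, 65.8 and 86.3 FPKM in AC. Its suspensor values were close together, and 32E was lower than AC with a difference of −4.22 ± 0.46 (adjusted p = 1.84e-05). The difference of 1.58 ± 0.46 between BC and AC missed the threshold (adjusted p = 0.0115), though all BC libraries were above all AC libraries. That SE is pooled over the 4 groups and includes the spread of the low values in 32E. GAD, glutamate decarboxylase, which makes GABA from glutamate, had 837, 602 and 793 FPKM in 32S, 0, 0.03 and 0 FPKM in 32E, 71.3, 71.3 and 64.3 FPKM in BC and 115, 110.4 and 151 FPKM in AC. It was at or near 0 in 32E, and its difference of −6.95 ± 0.15 from AC was the largest decrease among the 67 genes in that comparison (adjusted p = 6.94e-11).

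PCK1, phosphoenolpyruvate carboxykinase, opens the path from stored lipid to sugar. It had 668, 511 and 641 FPKM in 32S, 15.6, 34.7 and 25.2 FPKM in 32E, 7.59, 6.09 and 9.86 FPKM in BC and 0.27, 0.19 and 0 FPKM in AC. The groups were fully separate, and 32E exceeded BC by 1.52 ± 0.26 (adjusted p = 0.000368) and BC exceeded AC by 2.92 ± 0.26 (adjusted p = 2.55e-06), as log2 differences with SE. FDH, mitochondrial formate dehydrogenase, had 999, 931 and 1005 FPKM in 32S, 3.01, 8.53 and 4.09 FPKM in 32E, 15.8, 14.9 and 12.7 FPKM in BC and 1.99, 0 and 0 FPKM in AC. BC and 32E were both called higher than AC, which held at most 1.99 FPKM. The lower call in 32E against BC did not hold when any of 8 single libraries was left out.

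MIPS1, which commits glucose 6-phosphate to inositol, and BCA4, a carbonic anhydrase of the plasma membrane, were both higher in BC than in AC. MIPS1 had means of 968, 61.2, 184 and 67.9 FPKM in 32S, 32E, BC and AC. BCA4 had 629, 0.37, 114 and 23.01 FPKM in that order and was under 1 FPKM in all of 32E. STR16, a sulfurtransferase of the rhodanese type, and AT3G05600, an alpha/beta hydrolase gene, were lower in BC than in AC instead. AT3G05600 had 860.0, 1641 and 1087 FPKM in 32S, 117, 107 and 104 FPKM in 32E, 0, 6.8 and 0 FPKM in BC and 98.9, 92.3 and 115 FPKM in AC, a difference of −5.69 ± 0.62 between BC and AC (SE; adjusted p = 1.1e-05). STR16 had 1327, 1268 and 1219.7 FPKM in 32S and at most 6.07 FPKM in any other library. CAD1, annotated as a cinnamyl-alcohol dehydrogenase, was lower in 32E than in both BC and AC, while SDRB, AT5G02240 and AT5G19440, oxidoreductases of the Rossmann fold, were not called. Over 50.2% of its coding sequence SDRB aligns at 94.4% identity with AT2G07640, which had a mean of 0 FPKM in 32S, so the assignment of its reads is uncertain there.

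CEP1, a papain-type cysteine protease known from programmed cell death of the tapetum, had 1147, 1312 and 1228 FPKM in 32S, 0.91, 0.16 and 0.32 FPKM in 32E, 16.2, 15.1 and 15.8 FPKM in BC and 3.06, 6.17 and 5.67 FPKM in AC. The groups did not overlap and ran 32S, BC, AC, 32E, with BC above AC by 1.53 ± 0.23 (adjusted p = 0.000145) and 32E below AC with a difference of −2.02 ± 0.23 (adjusted p = 2.58e-05; log2 differences with SE). Its mean in 32S was 78.2 times that in BC. The cystatins CYSB and CYS1, inhibitors of papain-type proteases, were present in every library. CYSB had 1097, 1294 and 1122 FPKM in 32S, 48.8, 69.2 and 68.4 FPKM in 32E, 151, 176 and 153 FPKM in BC and 234, 219.6 and 189.9 FPKM in AC. CYS1 had means of 564, 78.2, 81.5 and 132 FPKM in 32S, 32E, BC and AC. Neither cystatin was called between BC and AC, and both had their highest level outside 32S in AC. CYSB was called lower in 32E than in AC (−1.78 ± 0.14, adjusted p = 1.26e-06) and than in BC (−1.36 ± 0.14, adjusted p = 6.41e-06; log2 differences with SE). CYS1 was not called in any of the 3 comparisons.

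Among the 8 genes of redox control, metal binding and stress, 1 was higher and 1 lower in BC than in AC, and 4 were lower and 1, MLP28, was higher in 32E than in AC. The shares over all tested genes were 18.4% higher and 19.0% lower in the former comparison, and 14.3% lower and 13.1% higher in the latter. MT2A, whose coding sequence is shown above, had 1490.5, 1445 and 1349 FPKM in 32S, 4.23, 5.3 and 1.42 FPKM in 32E, 6.94, 7.24 and 20.9 FPKM in BC and 28.03, 28.5 and 20.9 FPKM in AC. It was lower in 32E than in AC with a difference of −2.63 ± 0.40 (SE; adjusted p = 0.000222), while its difference between BC and AC was not called. Its lower call in 32E against BC was lost when any of 9 single libraries was left out. TPX2, a peroxiredoxin that reduces peroxides with thioredoxin, had 1056, 923 and 1006 FPKM in 32S, 0, 0.1 and 0.11 FPKM in 32E, 29.2, 25.8 and 33.2 FPKM in BC and 1.1, 3.71 and 2.41 FPKM in AC. BC exceeded AC by 3.23 ± 0.25 (SE; adjusted p = 7.51e-07). Its closest copy, AT1G60740, is 96.3% identical over its full length and had a mean of 0.87 FPKM in 32S, so the split of reads between these copies is uncertain.

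PRXR1, a class III peroxidase, was at or near 0 outside the suspensor, with 1154, 723 and 1039 FPKM in 32S, 0, 3.52 and 0 FPKM in 32E, 0, 5.12 and 0 FPKM in BC and 0.55, 0.15 and 0 FPKM in AC. In 32E and in BC its signal came from 1 library each. GSTF10, a glutathione transferase, was lower in 32E, at 8.98 ± 3.19 FPKM, than in BC, at 43.04 ± 18.2 FPKM, and AC, at 47.6 ± 4.29 FPKM (SD, n = 3 each). HVA22A, an ER membrane protein of the abscisic acid response, was also lower in 32E than in AC. MLP28 had 3197, 4969 and 3676 FPKM in 32S, 6.9, 3.98 and 0.43 FPKM in 32E, 0, 0 and 0 FPKM in BC and 0, 0.32 and 0 FPKM in AC. Since it passed the filter only through 32S, its calls in 32E, which were lost without most or some of the single libraries, are not read as differences. The closest copy of MLP28, MLP34, is 88.5% identical and had a mean of 1.29 FPKM in 32S, so the split of reads between them is uncertain.

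ATHSP22.0, a small heat shock protein of the ER, and ELIP2, an early light-induced protein of the thylakoid, are stress genes of which only ELIP2 was called. ATHSP22.0 had 1349, 614 and 1151 FPKM in 32S, 281, 138 and 25.2 FPKM in 32E, 28, 76.9 and 68.4 FPKM in BC and 61.4, 105 and 57.2 FPKM in AC. The libraries of its groups spread widely and 32E, BC and AC overlapped. Suspensor replicate 2 was its lowest suspensor library, as it was for HSFA2, the heat shock factor that is no member of the set and had 225, 129.7 and 205 FPKM in 32S. ELIP2, called lower in BC than in AC and higher in 32E than in BC, had 805 ± 140.4 FPKM in 32S, 152 ± 39.8 in 32E, 61.5 ± 39.4 in BC and 144 ± 27.6 in AC (SD, n = 3 each). Both calls of ELIP2 were lost when some single libraries were left out. The summed FPKM of 9 genes of wounding, touch and heat was 1688 to 1936 in 32S, 931 to 1230 in 32E, 273 to 413 in BC and 1135 to 1154 in AC. The part of handling stress in these levels was not tested.

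Genes for ubiquitin, folding and translation numbered 9, and 5 of them were not called in any of the 3 comparisons, against 42.7% of all tested genes. AT4G04090, with a BTB/POZ domain as found in substrate adaptors of ubiquitin ligases, stood apart with 7047, 10805 and 7922 FPKM in 32S, 32.9, 2.6 and 5.75 FPKM in 32E, 1615, 1632 and 1837 FPKM in BC and 29.7, 58.6 and 27.1 FPKM in AC. It was the most abundant of the 67 genes in BC, where it exceeded AC by 5.51 ± 0.62 (SE; adjusted p = 1.53e-05). UBQ11, a polyubiquitin gene, and UBQ7, which encodes ubiquitin joined to a ubiquitin-like protein, were not called and held, over the other groups, 248 to 362 FPKM and 135 to 241 FPKM. Polyubiquitin genes share nearly identical repeats, so UBQ11 is uncertain beyond its replicate error. UBL5, a ubiquitin-like protein, was not called either.

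PDIL1-1, a protein disulfide isomerase of the ER, was higher in BC than in AC by 1.84 ± 0.12 (SE; adjusted p = 2.97e-07), with 888, 806 and 884 FPKM in 32S, 85.9, 105 and 72.7 FPKM in 32E, 154, 138 and 166 FPKM in BC and 42.1, 43.4 and 39.8 FPKM in AC. The RAMP4 genes AT1G27330 and AT1G27350 encode a small protein associated with ER-bound ribosomes. They were the only members within 5 genes of each other on a chromosome, at chr1:9492849-9494382 and chr1:9498000-9499639 of TAIR10.1 on opposite strands, with 1 gene between them. Their coding sequences are 92.8% identical, which makes their separate values uncertain. AT1G27350 had 608 ± 25.99 FPKM in 32S, 68.3 ± 9.56 in 32E, 95.3 ± 4.81 in BC and 54.5 ± 3.39 in AC, and AT1G27330 had 554 ± 71.3, 121 ± 27.5, 47.2 ± 5.42 and 58.9 ± 3.66 FPKM in that order (SD, n = 3 each). Outside 32S the highest mean was in BC for AT1G27350 and in 32E for AT1G27330, which was called higher in 32E than in BC. ELF5A-3, a translation factor of the eIF5A family, was not called, and AT1G26550, a peptidyl-prolyl isomerase gene, was lower in BC than in AC. The calls of AT1G26550 and of PDIL1-1 in 32E against AC were lost when some single libraries were left out.

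NF-YB6, the LEC1-LIKE subunit of the CCAAT-binding factor NF-Y, and NF-YC2, which encodes another NF-Y subunit, are nuclear factors with unlike profiles. NF-YB6 had 784, 590.4 and 732 FPKM in 32S, 0.87, 1.5 and 0.96 FPKM in 32E, 7.89, 6.87 and 7.57 FPKM in BC and 1.53, 0 and 0 FPKM in AC. Its mean in 32S was 94.3 times that in BC, and BC exceeded AC by 2.63 ± 0.32 (SE; adjusted p = 2.81e-05). NF-YC2 had 1538, 925 and 1353 FPKM in 32S, 306, 343 and 169.6 FPKM in 32E, 69.9, 70.8 and 73.3 FPKM in BC and 218, 161 and 225 FPKM in AC. It was lower in BC than in AC by a log2 difference of −1.47 ± 0.25 (SE; adjusted p = 0.000383) and had the highest level in 32E after UBQ11 among the 67 genes. ANNAT2, a calcium-dependent membrane-binding annexin, was lower in 32E than in AC with a difference of −2.87 ± 0.14 (SE; adjusted p = 2.95e-08).

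The most abundant of the 67 genes has no known role. AT4G33145, at chr4:15984643-15985064 on chromosome 4 of TAIR10.1, encodes an uncharacterized protein of 64 codons without a cysteine codon. It had 15819.5, 25840.2 and 16500.0 FPKM in 32S, 72.3, 33.7 and 63.7 FPKM in 32E, 1539, 1506 and 1526 FPKM in BC and 602, 732 and 504 FPKM in AC. BC exceeded AC by 1.33 ± 0.27 (adjusted p = 0.00106) and 32E fell below AC with a difference of −3.47 ± 0.27 (adjusted p = 1.04e-06), as log2 differences with SE. AT5G61412, also uncharacterized, had the same order, with 2846, 4203 and 2419 FPKM in 32S, 11.2, 13 and 15.7 FPKM in 32E, 320.5, 322 and 245 FPKM in BC and 117, 73.4 and 78.4 FPKM in AC. AT4G32205, annotated as a pseudogene, had 1589.8, 1571 and 1592 FPKM in 32S, 9.97, 10.7 and 5.24 FPKM in 32E, 28.2, 101 and 56.7 FPKM in BC and 0, 0 and 0 FPKM in AC. Its suspensor libraries had a coefficient of variation of 0.72%, while its BC libraries spread widely, and AC was listed at 0.

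SVB, a trichome gene, and AT4G24130 belong to the DUF538 family and had opposite orders in the daughter cells. SVB had 996, 1960.4 and 1233 FPKM in 32S, 48.8, 71.8 and 50.3 FPKM in 32E, 0, 3.32 and 0 FPKM in BC and 60.3, 47.9 and 78.2 FPKM in AC. It was lower in BC than in AC with a difference of −5.25 ± 0.49 (SE; adjusted p = 3.24e-06). AT4G24130 had 929, 1165 and 922 FPKM in 32S, 0.21, 0.09 and 0.1 FPKM in 32E, 130.0, 129 and 133 FPKM in BC and 0, 2.29 and 0 FPKM in AC. It was higher in BC than in AC by 6.47 ± 0.37 (SE; adjusted p = 1.02e-07), the largest such difference among the 67 genes. AT5G51400, a PLAC8 family gene, was not called.

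Replicates within 32S agreed to different degrees. The coefficient of variation over the 3 suspensor libraries had a median of 12.9%, was under 10% for 27 genes and over 30% for 11. Replicate 2 was the highest library for 44 of the 67 genes (65.7%), and for 119 of the other 184 genes with at least 500 FPKM in 32S (64.7%). The ratio of replicate 2 to the mean of replicates 1 and 3 ran from 0.49 in ATHSP22.0 to 2.31 in AT5G63085. It was at least 1.5 for 14 genes and at most 0.75 for 6. By role, replicate 2 was highest for 7 of 7 secreted peptide genes, 6 of 6 lipid genes, 3 of 3 transporter genes, 3 of 3 protease or inhibitor genes and 7 of 10 cell wall and surface genes. It was highest for 5 of 12 metabolic enzyme genes, 4 of 8 redox, metal and stress genes, 4 of 9 ubiquitin, folding and translation genes, 1 of 3 nuclear and calcium-binding genes and 4 of 6 genes with no known role. The roles were assigned after the values were known.

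Markers differed in that library in both directions, and the ratio is given for 6 of the 54 marker genes. It was 2.77 for PDF1 and 1.96 for ATML1, genes of the outer cell layer, 1.403 for WOX9 and 0.86 for WOX8 of the basal lineage, 0.60 for HSFA2 and 0.49 for the polyubiquitin gene UBQ10. Its median was 1.13 over the 67 genes and 1.15 over the other 184 abundant genes. Other embryo proper markers moved less: in replicates 1, 2 and 3 PDF2, also of the outer layer, had 99.98, 129 and 111 FPKM and AGO10 had 3.77, 3.02 and 2.89 FPKM. Of the 9 embryo proper markers, 5 had a mean above 1 FPKM in 32S and HAN was listed at 0 in all 3 suspensor libraries. Their summed FPKM, most of it PDF1 in 32S and in 32E, was 622 to 2109.5 in 32S, 4174 to 4864 in 32E, 532 to 558 in BC and 555 to 635 in AC. The part of these markers in the spread of the 67 genes was not tested. Without replicate 2 the rule gave 76 genes, with 5 of the 67 lost and 14 gained. With that library left out of the fit, 23 of the 67 genes were still called higher and 11 lower in BC than in AC, 7 higher and 27 lower in 32E than in AC, and 10 higher and 30 lower in 32E than in BC.

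**Figure D5:**
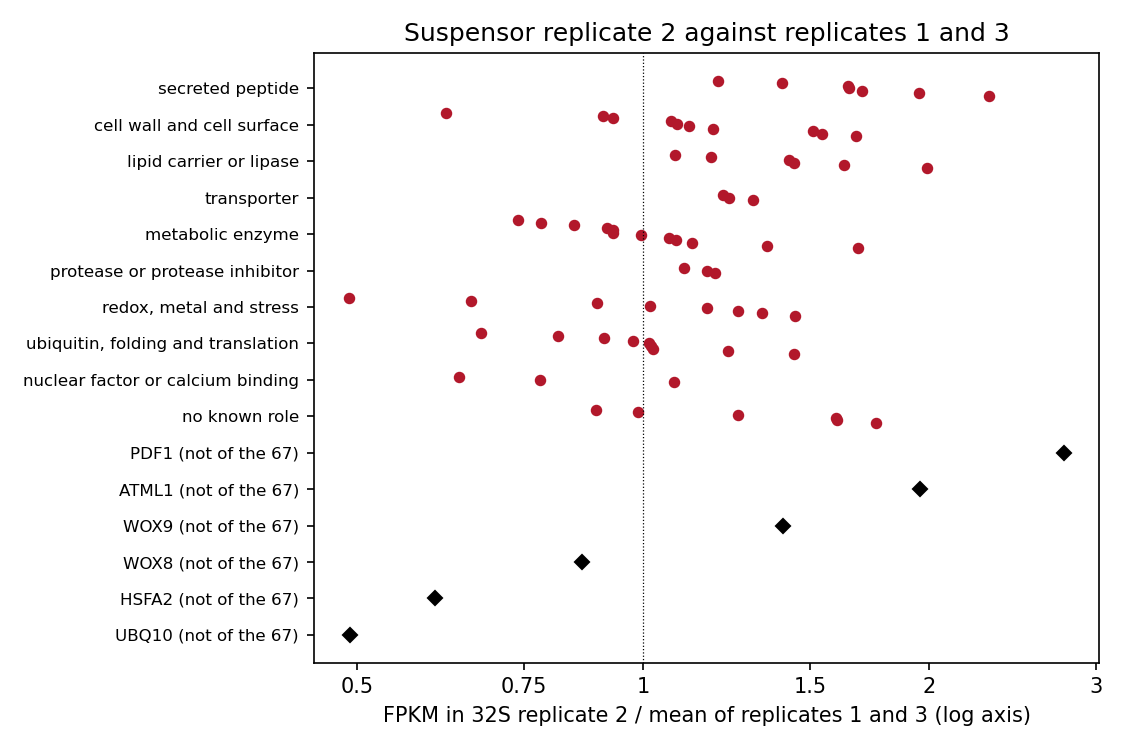
Ratio of the FPKM in 32S replicate 2 to the mean of replicates 1 and 3 (log axis) for each of the 67 genes by role (circles) and for 6 marker genes outside the set (diamonds). Secreted peptide, lipid and transporter genes lie to the right of 1, PDF1 lies at 2.77 and UBQ10 at 0.49.

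Sequence features that the choice did not use were counted beside those of other genes. Coding length had a median of 197 codons in the 66 genes with a coding sequence, 210 in the other 184 abundant suspensor genes and 394 in the other tested genes. Frames of at most 120 codons made up 17 of the 66 (25.8%), against 14.7% of the other abundant genes and 5.44% of the other tested genes. Frames that short with at least 6 cysteine codons made up 7 of the 66 (10.6%), against 2.72 and 0.88%. These 7 were LCR48, AT5G38170, AT5G63085, AT4G30880, AT1G77525, AT5G46871 and MT2A. The annotation named the endomembrane system as a location for 18 of the 42 genes with an annotated location (42.9%), against 10.9% of the other abundant genes and 15.9% of the other tested genes. For some genes, among them THI1, GSTF10, ENODL2 and PDIL1-1, the annotation gave only a number of components. In every set such genes counted as annotated but not as endomembrane. No test was run on any of these shares.

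Promoter motifs were searched on both strands in the 250 bases before each gene. The RY element CATGCA was in 12 of the 67 promoters (17.9%), against 9.78% of the other abundant genes and 8.78% of 31911 promoters of genes in the files. The 12 genes were MEE26, AT4G04090, AT5G38170, SWEET12, AT4G19200, AT4G30880, PSK1, AT3G05600, ATHSP22.0, MIPS1, AT2G15010 and AT5G22810, and 5 of them held 2 matches, which may overlap on opposite strands. The G-box CACGTG, which contains the ACGT core, was in 1 promoter (1.49%), against 11.4 and 5.91%. TATAAA was in 44.8% against 50.5 and 45.9%, the W-box core TTGAC in 50.7% against 50.5 and 44.6%, ACGT in 52.2% against 45.1 and 42.6%, and the auxin response element TGTCTC in 7.46% against 10.9 and 10.8%. A match is a description of the letters and not of a bound site. The genes lay on all 5 chromosomes, with 19, 7, 6, 15 and 20 on chromosomes 1 to 5.

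Genes with related product names that are not among the 67 were tested between 32S and BC and between 32S and 32E. Of all tested genes, 25.3% were higher and 26.7% lower in 32S than in BC, and 22.6% were higher and 23.8% lower in 32S than in 32E. Of 599 other genes for ribosomes and translation, 42 were higher and 358 lower in 32S than in BC, and 34 were higher and 368 lower in 32S than in 32E. The filter admits genes that exceed 1 FPKM only in the 3 libraries of 32S. Of 186 other genes for small cysteine-rich peptides, 62 were higher and 51 lower in 32S than in BC, and 51 were higher and 37 lower in 32S than in 32E. Against BC, the order of the counts reversed with other settings. A stricter filter gave 41 higher and 47 lower, and a larger pseudocount gave 40 higher and 43 lower. Of 422 other lipid genes, 139 were higher and 86 lower in 32S than in BC, and 141 were higher and 72 lower in 32S than in 32E. Of 602 other transporter genes, 169 were higher and 139 lower in 32S than in BC, and 177 were higher and 83 lower in 32S than in 32E. Some classes shifted more between 32S and BC. Higher and lower were 26 and 7 of 60 photosynthesis and plastid genes, 69 and 29 of 187 stress and seed maturation genes, and 138 and 70 of 387 redox genes. Of 134 amino acid and nitrogen genes, 29 were higher and 40 lower in 32S than in BC. Against 32E the order was the opposite, with 36 higher and 27 lower in 32S. The remaining classes are not listed.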

How the data were processed

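RNA of 12 libraries, 3 each of 32S, 32E, BC and AC, was measured as FPKM per gene. The authors trimmed reads with Cutadapt, aligned them to TAIR10 and estimated the deposited FPKM values with RSEM; the methods name Bowtie 2 and the submitters' processing notes name TopHat2 2.1.1, so the aligner is not settled. Values carry 2 decimals and no counts, so the files give no depth, and the study's read totals were not used here. For the tests, log2(FPKM + 1) was taken of the deposited values and 17060 genes entered, those over 1 FPKM in 3 or more libraries. One model of the 4 groups was fitted in limma 3.58.1 (R 4.3.3) with a mean-dependent prior, with Benjamini-Hochberg adjustment over all tested genes. Fold changes on this scale understate changes of low genes. Comparisons with 32S were used to choose the 67 genes, so no test of them is reported for these genes. The script was tested on simulated data. Tables and figures used python 3.11.15, pandas 2.3.3, numpy 2.4.6 and matplotlib 3.10.9. Names, coordinates and sequences are from RefSeq TAIR10.1 (31912 of 32399 identifiers matched), and close copies were found with blastn. The 67 genes and all lists were chosen with earlier results of these data known. Of the 67, 54 were named by level, ratio, family, product class or a large called difference among 32E, BC and AC. The other 13 were named by role after their values were seen. Classes rest on words in product names. Alternatives were other pseudocounts, filters, scalings and thresholds, single libraries left out, a replicate block and fits of 2 groups only.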

Additional observations from a re-analysis of the deposited data

How the results depend on the processing

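The rule gave 67 genes, and 66 to 76 with single libraries left out. Scaling by median ratios gave 84 genes, with none of the 67 lost, and scaling to TPM gave 70, with 5 lost. Of 111 calls among 32E, BC and AC, 89 held under all alternatives run, 12 were lost when some single library was left out, and none reversed. A pseudocount of 5 left 5 genes called higher in 32E than in AC, against 8 with a pseudocount of 1, and lost 14 calls in all. Leaving genes unfiltered lost 9 calls and fitting only the 2 groups compared lost 9. No pairing by replicate number was seen, since none of 18 same-numbered pairs had a correlation of deviations above 0.1. Among pairs with unlike numbers, 32E replicate 3 and 32S replicate 2 had 0.138. Such correlations cannot show whether libraries came from shared embryos or dissections. With the number as a replicate block, 23 genes were higher and 11 lower in BC than in AC, 9 higher and 27 lower in 32E than in AC, and 10 higher and 30 lower in 32E than in BC. Median-ratio scaling moved the median of all tested genes by 0.14 in 32E minus BC, and the median of the 67 genes was then −0.61. Without counts, the precision of values of a few FPKM, as in LCR48, PRXR1 and MLP28 outside 32S, is unknown.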
